A study of Mus musculus with 3 samples.

Results

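Human IgG (hIgG) was compared with vehicle in cultured synovial cells of arthritic mice, with 1 array for each condition and 2 of the 3 arrays of the series in all. A probe entered the comparison when it was detected on both arrays, which held for 18725 of 23473 probes (79.77%). The third array, of cells given CTLA-4-Ig (abatacept), served only to show which array stood apart. The cells came from D1BC mice, DBA/1 mice that carry murine B7.1 (Cd80) under the promoter and enhancer of rat type II collagen, in which arthritis had been induced from 7 to 8 weeks of age with bovine type II collagen in adjuvant. All 3 conditions therefore share the transgene, the arthritis and the culture in medium with 10% serum. The hIgG culture received hIgG for 48 h, the CTLA-4-Ig culture received CTLA-4-Ig for as long, and the vehicle culture received vehicle. The study's methods give 100 μg/ml of protein, the sample titles 100 μg, and the protocol in the labels 100 mg/ml. Whether 1 mouse or several gave the cultures is not given in the sources used here, so that treatment, culture and array cannot be told apart, and no p-value can be had.

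The labels call the cells primary fibroblast-like synoviocytes, while in flow cytometry the study divided such cultures by CD45 into CD45- synoviocytes and CD45+ macrophages, and the arrays showed markers of both. The fibroblast gene Pdgfra had a signal of 675 on hIgG and 697 on vehicle. The macrophage lysozyme gene Lyz2 had the highest signal of all probes, 28785 on hIgG and 27289 on vehicle. The leucocyte gene Ptprc (CD45) had 376 on hIgG and 345 on vehicle. Of 18 T and NK cell markers on the array 12 were detected on both arrays, 2 of them with a mean signal of 25 or more. These were Foxp3, with 128 on hIgG and 121 on vehicle, and Cd28, with 57.8 on hIgG and 77.3 on vehicle. The T cell receptor subunit gene Cd3d had 8.3 on hIgG and 6.8 on vehicle, and its partners Cd3e and Cd3g were detected on neither.

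IgG is the main antibody class of blood, and its constant part is bound by Fc receptors on macrophages and other leucocytes. Cross-linked activating Fc receptors signal through kinases of the Src family and Syk. Non-specific hIgG is commonly given as the control for fusion proteins that carry an Fc part, as abatacept does. Interferon-stimulated genes are switched on by STAT and IRF factors, which bind short promoter elements called ISRE and GAS. Contractile genes such as those for smooth muscle actin are driven by serum response factor, which binds the CArG box. Synovial fibroblasts make and break down the joint matrix, and their contractile and matrix genes are known to respond to TGF-beta.

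Promoters of genes described below are shown from 250 bases before to 50 bases after the transcription start, from RefSeq on GRCm38.p6, read in the direction of the gene. Capitals mark the element, which was searched on both strands. The ISRE was searched as GAAANNGAAA, the GAS element as TTCNNNGAA and the CArG box by its consensus. The first set shows 3 interferon-stimulated genes with higher signals on hIgG, Cxcl10 (chr5:92348840-92349139, minus strand), Isg15 (chr4:156200769-156201068, minus strand) and Igtp (chr11:58199306-58199605, plus strand), with the ISRE in capitals. In Isg15 3 matches overlap.
Cxcl10: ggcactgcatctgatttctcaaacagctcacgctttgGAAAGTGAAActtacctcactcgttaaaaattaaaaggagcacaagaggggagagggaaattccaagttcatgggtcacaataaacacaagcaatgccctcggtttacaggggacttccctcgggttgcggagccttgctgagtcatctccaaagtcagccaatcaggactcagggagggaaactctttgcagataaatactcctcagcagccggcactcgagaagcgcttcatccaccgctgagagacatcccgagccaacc
Isg15: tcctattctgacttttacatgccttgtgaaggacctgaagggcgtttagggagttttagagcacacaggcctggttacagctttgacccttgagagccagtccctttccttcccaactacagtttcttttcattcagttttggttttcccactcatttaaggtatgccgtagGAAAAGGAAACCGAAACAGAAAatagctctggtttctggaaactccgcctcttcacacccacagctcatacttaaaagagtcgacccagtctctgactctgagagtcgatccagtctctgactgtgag
Igtp: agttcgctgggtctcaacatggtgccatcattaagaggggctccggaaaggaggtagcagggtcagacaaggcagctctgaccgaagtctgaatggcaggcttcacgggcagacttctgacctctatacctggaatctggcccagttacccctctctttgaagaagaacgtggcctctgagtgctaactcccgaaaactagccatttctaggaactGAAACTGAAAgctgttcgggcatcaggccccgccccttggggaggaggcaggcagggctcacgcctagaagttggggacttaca

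The next promoters belong to Fcgr1 (chr3:96293920-96294219, minus strand), the activating Fc receptor with the largest ratio, with a GAS element in capitals, and to Vcl (chr14:20929148-20929447, plus strand), which encodes the adhesion protein vinculin and had a lower signal on hIgG, with a CArG box in capitals.
Fcgr1: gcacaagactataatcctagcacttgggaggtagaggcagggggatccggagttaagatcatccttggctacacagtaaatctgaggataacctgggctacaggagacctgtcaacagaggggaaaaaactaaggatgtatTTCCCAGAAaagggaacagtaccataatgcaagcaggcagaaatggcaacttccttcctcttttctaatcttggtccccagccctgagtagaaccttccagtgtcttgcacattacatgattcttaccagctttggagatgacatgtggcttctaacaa
Vcl: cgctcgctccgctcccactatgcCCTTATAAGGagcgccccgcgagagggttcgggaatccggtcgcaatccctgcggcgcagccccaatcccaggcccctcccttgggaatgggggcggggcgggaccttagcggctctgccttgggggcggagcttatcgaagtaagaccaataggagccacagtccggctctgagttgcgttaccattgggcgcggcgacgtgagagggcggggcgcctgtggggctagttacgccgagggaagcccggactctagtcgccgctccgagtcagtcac

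Of 27025 genes with a promoter in the table, 3.99% held an ISRE, 9.55% a GAS element and 1.81% a CArG box in this window. Among detected antiviral interferon-stimulated genes 18 of the 37 with a promoter held an ISRE, and among GTPases of the GBP and IRG families 10 of 11 did. Over all detected genes, the 481 with an ISRE had a median log2 ratio (hIgG over vehicle) of 0.071, and the 11825 without one had 0.025. The 389 ISRE genes that stood in none of the gene lists used here had a median of 0.057. Within the lists of antiviral, GTPase and PYHIN genes, those with an ISRE and those without had medians of 0.35 (n = 33) and 0.34 (n = 23). For the GAS element the medians over all genes were 0.044 with it (n = 1073) and 0.024 without it (n = 11233), and for the CArG box 0.001 (n = 208) and 0.027 (n = 12098). Of 15 contractile genes with a promoter, 1 held a CArG box. A match is a description of these letters and not evidence of binding.

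Most genes had nearly equal signals on hIgG and vehicle, and the scatter of the ratios depended on how bright the probe was. Signals are intensities on a linear scale, which the authors scaled to a median of 25 on each array. Over all 18725 probes the median log2 ratio was 0.025 and the robust standard deviation (the scaled median absolute deviation) was 0.185. Below a mean signal of 5 the robust standard deviation was 0.383 (3729 probes), and it was 0.155 between 25 and 50 (2333 probes) and 0.128 at 400 and over (1605 probes). Over all probes 45 were 2-fold higher on hIgG (0.24%) and 57 were 2-fold lower (0.304%), and of these 40 and 49 had a mean signal under 5. Among the 9566 probes that averaged 25 or more over both arrays, 3 were 2-fold higher on hIgG (0.0314%) and 1 was 2-fold lower (0.0105%). At 1.5-fold, 35 of these probes were higher on hIgG (0.366%) and 33 were lower (0.345%). Relative to the scatter in their own range of signals, 32 of them (0.335%) lay 4 robust standard deviations or more above the median on hIgG and 44 (0.46%) lay as far below it. In the brightest range alone, 5 lay above and 17 below. Correction of the scanned spots with their own background column (normexp), which tracks the spot signal with a correlation of 0.99 or more on a log2 scale, gave other ratios. Signs turned for 38 of the genes named here, counted only where the ratio exceeded 2 robust standard deviations of the signal range. Among them were Ccl12, Hp and Thbs1.

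**Figure D1:**
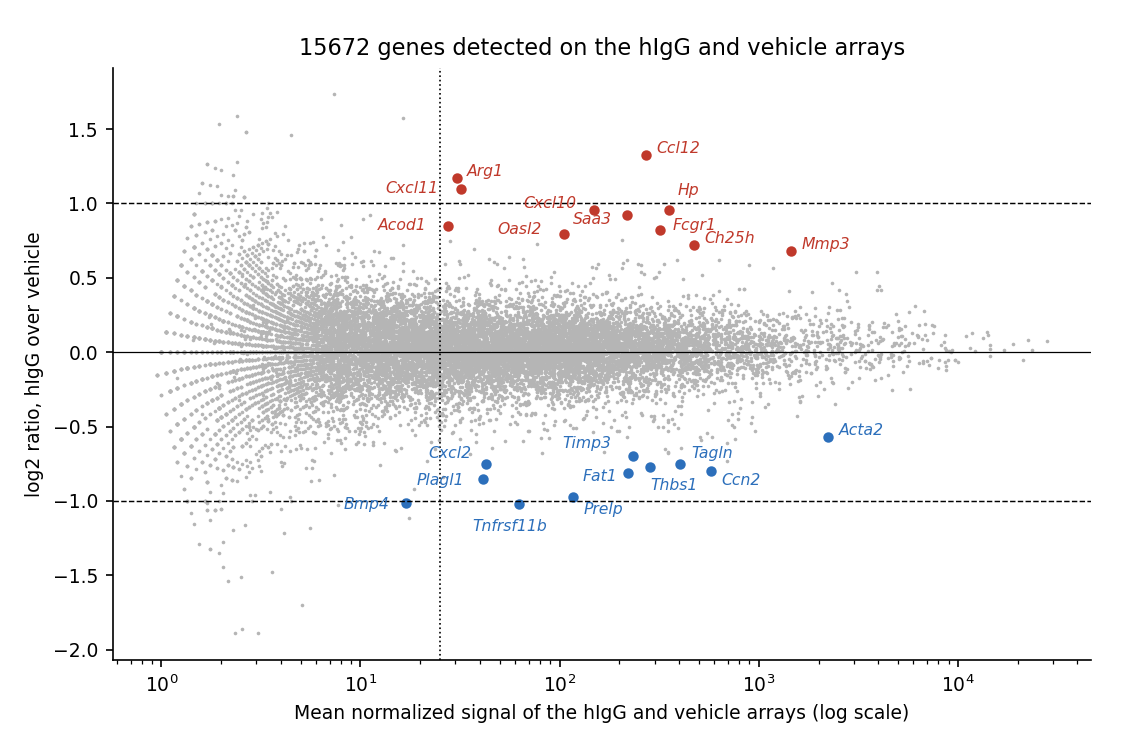
Log2 ratio of hIgG over vehicle (vertical axis) against the mean normalized signal of both arrays (horizontal axis, log scale) for 15672 genes, each a grey point. The dotted line marks a mean signal of 25 and the dashed lines a 2-fold difference. The points fan out below a signal of 10, while Ccl12, Arg1 and Cxcl11 (red) lie above the upper dashed line and Tnfrsf11b (blue) lies below the lower one at signals of 25 or more.

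A ratio of 1 gene from 1 pair of arrays carries error, and a second probe can show the part that differs between probes. Both probes read the same RNA on the same arrays, so that differences between cultures, or in RNA and labelling, stay hidden. Of the genes with exactly 2 probes, 231 had mean signals of 25 or more for both, and across these genes the log2 ratios of the 2 probes had a Pearson r of 0.18 and a Spearman rho of 0.13. Genes are not independent replicates, and most of these ratios lie near 0. The robust standard deviation of the difference between both probes of a gene was 0.20. Where 1 probe had a ratio well away from 0, the other could lie far from it or close to it. Ltn1 had -0.42 for its brighter and 0.23 for its dimmer probe, Tulp4 had -0.38 and 0.14, and Tesk1 had 0.55 and 0.07, all at mean signals of 25 or more. The probes of Cemip, which degrades hyaluronan, had log2 ratios of -0.95 and -1.04, although the dimmer had a mean signal of only 3.05. Those of Prss23, a serine protease, had -0.62 and -0.54, and those of Ccdc80, a matrix protein, -0.49 and -0.57, with dimmer probes at mean signals of 7.6 and 3.6. Cd80, which is both an endogenous gene and the transgene of these mice, had probes at -0.40 and -0.55, with mean signals over the probes of 34.5 on hIgG and 48.0 on vehicle.

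**Figure D2:**
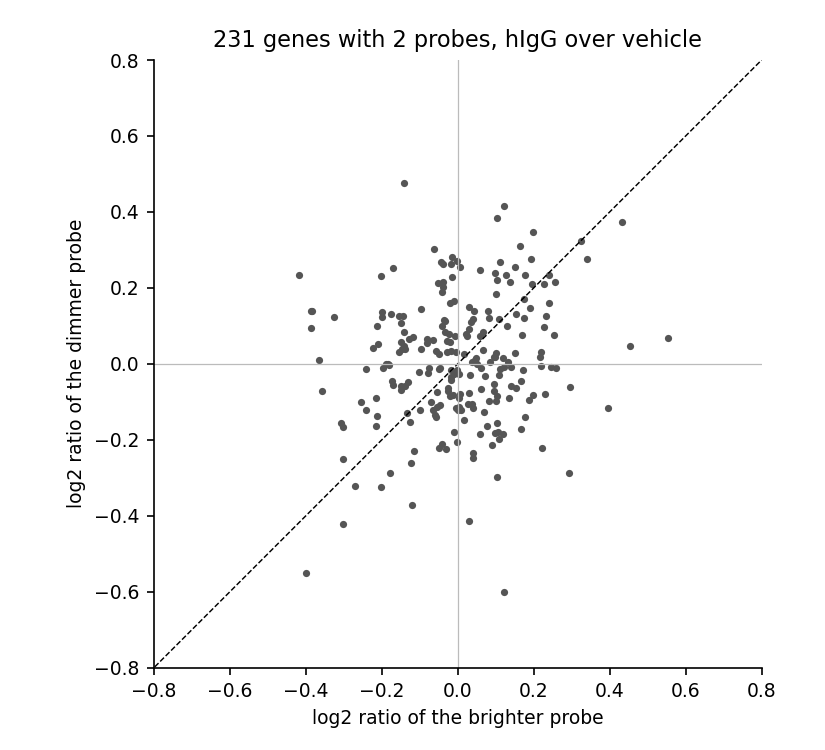
Log2 ratio of hIgG over vehicle for the brighter (horizontal axis) and the dimmer (vertical axis) probe of 231 genes with 2 probes, both averaging 25 or more. Each point is a gene and the dashed line is equality. The points scatter round 0 with a Pearson r of 0.18.

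The third array showed which of both arrays stood apart for a gene. At a mean signal of 25 or more, the robust standard deviation was 0.14 for hIgG over vehicle, 0.162 for CTLA-4-Ig over hIgG and 0.183 for CTLA-4-Ig over vehicle, so that hIgG and vehicle were the closest pair. CTLA-4-Ig lay nearer to vehicle than to hIgG for 43.8% of these 9566 probes. Among the 20 genes with the highest ratios, in contrast, CTLA-4-Ig was nearer to vehicle for 17, and the same held for 17 of the 20 genes with the lowest. These genes were chosen for the distance between hIgG and vehicle, and the part of array error in their values was not tested.

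**Figure D3:**
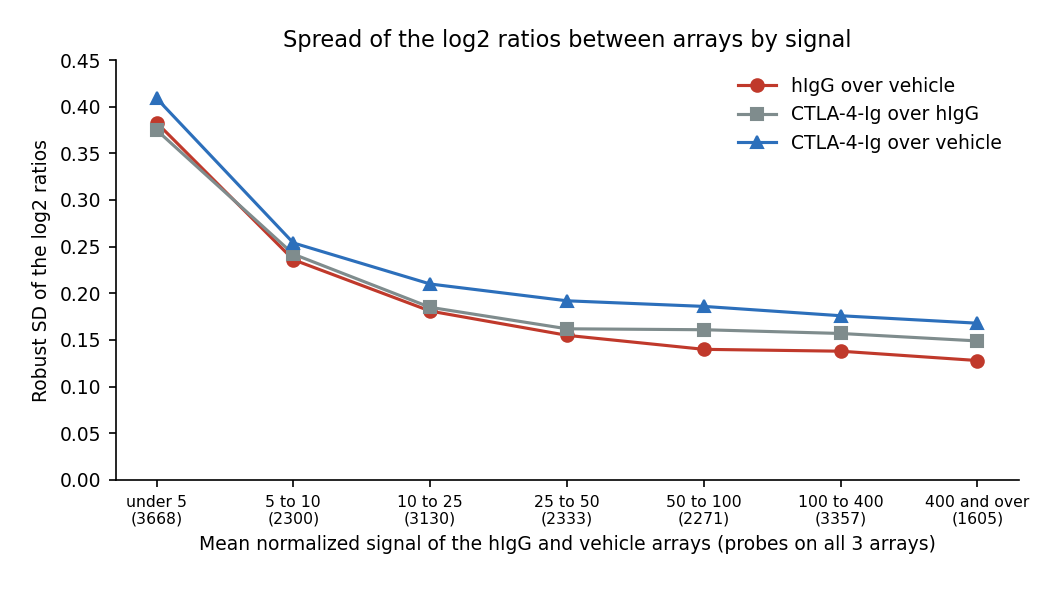
Robust standard deviation of the log2 ratios (vertical axis) in 7 ranges of mean signal (horizontal axis, number of probes detected on all 3 arrays in brackets) for the 3 pairs of arrays. The spread of hIgG over vehicle is 0.383 below a signal of 5 and 0.128 at 400 and over, and from a signal of 5 upwards it is the smallest of the 3.

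At a mean signal of 25 or more, chemokines that draw monocytes and T cells were among the highest ratios on hIgG, beside enzymes and receptors of activated macrophages. Ccl12, which attracts monocytes through Ccr2, had a signal of 387 on hIgG and 154 on vehicle (log2 ratio 1.33), with 142 on CTLA-4-Ig. Cxcl11, a ligand of Cxcr3, had 43.5 on hIgG and 20.3 on vehicle (1.10), and Cxcl10, another ligand of this receptor, had 196 on hIgG and 101 on vehicle (0.95). Below that signal, Ccl20 and Cxcl9 had signals of 14.6 and 13.4 on hIgG against 7.70 and 7.20 on vehicle. Ccl11 (eotaxin) had 37.6 on hIgG and 24.6 on vehicle (0.61). The neutrophil chemokines went in both directions. Cxcl1 had 314 on hIgG and 218 on vehicle (0.53), whereas Cxcl2 had 32.0 on hIgG and 53.9 on vehicle (-0.75). Ccl3 was also lower on hIgG, with 118 against 156 on vehicle (-0.40). Of 15 detected CC chemokines 10 lay above the all-gene median and 3 were 1.5-fold higher, and of 15 chemokines of the other classes 10 lay above it, 3 were 1.5-fold higher and 1 was 1.5-fold lower. Over all 15672 detected genes 2.08% were 1.5-fold higher on hIgG, 1.67% were 1.5-fold lower, and 50% lay above their own median, which was 0.026.

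Arg1, the arginase that macrophages express on alternative activation, had a signal of 42.1 on hIgG, 19.4 on CTLA-4-Ig and 18.7 on vehicle, a log2 ratio of 1.17. Acod1, which makes itaconate in activated macrophages, had 35.5 on hIgG and 19.7 on vehicle (0.85). Gpr84, a receptor for medium-chain fatty acids, had 35.5 on hIgG and 21.1 on vehicle (0.75). The mean signals of these genes stood only a little above 25, and CTLA-4-Ig was nearer to vehicle in each, with 16.9 for Acod1 and 25.1 for Gpr84. Ch25h, which makes 25-hydroxycholesterol, was brighter, with 589 on hIgG, 408 on CTLA-4-Ig and 358 on vehicle (0.72). The C-type lectin receptor Clec4e (Mincle) had 67.9 on hIgG and 43.5 on vehicle (0.64). Clec5a, another such receptor, had 265 on hIgG and 172 on vehicle (0.62), but there CTLA-4-Ig, with 248, lay near hIgG. The receptors Cx3cr1 and P2ry12 had ratios of 0.62 and 0.63. CTLA-4-Ig lay near vehicle for Cx3cr1 (48.2 against 51.5) but near hIgG for P2ry12 (50.3 against 53.7). The lysosomal protease gene Ctsc had 1410 on hIgG and 951 on vehicle (0.57).

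**Figure D4:**
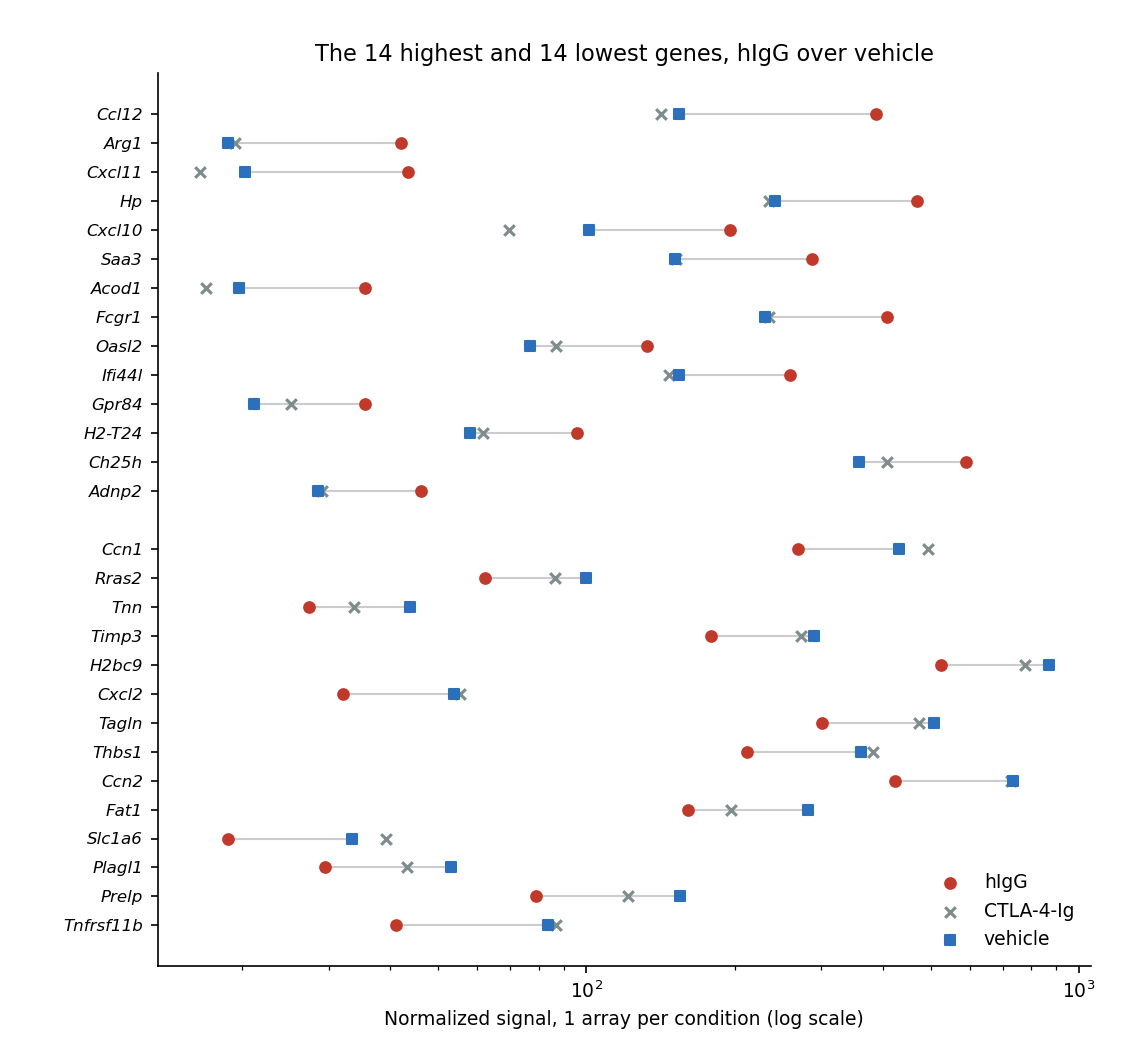
Normalized signal (horizontal axis, log scale) on the hIgG (circles), CTLA-4-Ig (crosses) and vehicle (squares) arrays for the 14 genes with the highest and the 14 with the lowest log2 ratio of hIgG over vehicle at a mean signal of at least 25. There is 1 array per condition. For Ccl12 the hIgG signal of 387 lies apart from 142 on CTLA-4-Ig and 154 on vehicle. For Ccn2 the hIgG signal of 423 lies apart from 728 on CTLA-4-Ig and 735 on vehicle.

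Acute phase genes held the next of the highest ratios. Hp, which encodes the haemoglobin-binding protein haptoglobin, had a signal of 469 on hIgG, 235 on CTLA-4-Ig and 242 on vehicle (0.96). Saa3, a serum amyloid A made outside the liver, had a ratio of 0.92. Ptx3, a pentraxin of the same class of proteins, went the other way with 1335 on hIgG and 1797 on vehicle (-0.43). Of 19 detected members of this list 6 were 1.5-fold higher on hIgG and 1 was 1.5-fold lower, with a median of 0.32. That median rested on dim members, since over the 7 members that averaged 25 or more it was 0.05.

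Interferon-stimulated genes were higher on hIgG as a group, by small amounts for each gene. The lists used here were put together with earlier results of these data known. Of 49 detected antiviral genes 46 lay above the all-gene median, 5 were 1.5-fold higher, none was 1.5-fold lower and the median was 0.34. Over the 45 members that averaged 25 or more the median was 0.34 too. Oasl2, of the oligoadenylate synthetase family, had a signal of 133 on hIgG, 86.7 on CTLA-4-Ig and 76.7 on vehicle (0.79). Oas1a, which makes the second messenger that turns on RNase L, had 404 on hIgG and 268 on vehicle (0.59). Isg15, a ubiquitin-like modifier, had 307 on hIgG and 205 on vehicle (0.58), and Usp18, which removes it, had 223 on hIgG and 159 on vehicle (0.49). The RNA sensor Ifih1 (MDA5) had 79.3 on hIgG and 55.7 on vehicle (0.51). At the other end, Samd9l had 437 on hIgG and 449 on vehicle (-0.04) and Ifi27 had 1170 on hIgG and 1209 on vehicle (-0.05). Ifi44l, which stands in no list, had 259 on hIgG and 154 on vehicle (0.75).

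Of 16 detected GTPases of the GBP and IRG families, which act on vacuoles that hold pathogens, 13 lay above the all-gene median and 3 were 1.5-fold higher, with a median of 0.38. Igtp had a signal of 194 on hIgG and 147 on vehicle (0.40). Gbp10 was dim, with 14.4 on hIgG and 9.0 on vehicle (0.68). All 9 detected PYHIN genes, which encode DNA sensors, lay above the all-gene median, between 0.08 and 0.45. Of 17 detected IRF and STAT factors and JAK kinases, which drive these genes, 10 lay above the all-gene median and none was 1.5-fold apart, with a median of 0.11 and between -0.37 and 0.51. Irf7 had 106 on hIgG and 74.6 on vehicle (0.51) and Irf8 had 106 on hIgG and 81.0 on vehicle (0.38), Stat2 had 129 on hIgG and 118 on vehicle (0.13), and Jak1 had 502 on hIgG and 540 on vehicle (-0.11). The interferon genes themselves were dim or near equal. Ifnb1 had 4.10 on hIgG and 3.30 on vehicle, and Ifng had 2.60 on both.

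Genes of antigen presentation by MHC class I were slightly higher on hIgG. Of 25 detected members 22 lay above the all-gene median and 2 were 1.5-fold higher, with a median of 0.21. H2-T24, a non-classical class I gene, had a signal of 95.9 on hIgG and 58.0 on vehicle (0.73). Psmb8, a subunit of the immunoproteasome, had 1072 on hIgG and 713 on vehicle (0.59), but CTLA-4-Ig had 1070 there, as high as hIgG. Psmb10, of the same complex, had 473 on hIgG, 328 on CTLA-4-Ig and 363 on vehicle (0.38). Class I genes are near-identical copies in part, and their probes may share transcripts. For class II, 6 of 11 detected members lay above the all-gene median, and the median was 0.04.

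Genes of Fc receptors and IgG handling, not all of them receptors for IgG, were near equal but for 1. The list held 14 genes, of which 13 were on the array and 10 were detected on both arrays. Fcgr1, the high-affinity Fc gamma receptor, had a signal of 408 on hIgG, 235 on CTLA-4-Ig and 231 on vehicle, a log2 ratio of 0.82. No other of the 10 detected genes of Fc receptors and IgG handling was 1.5-fold apart. The inhibitory receptor Fcgr2b had 554 on hIgG and 512 on vehicle (0.11), and the activating receptors Fcgr3 and Fcgr4 had ratios of 0.10 and 0.02. Their shared signalling chain Fcer1g had 4157 on hIgG and 3947 on vehicle (0.07). Fcgrt, the neonatal receptor that recycles IgG, had 243 on hIgG and 283 on vehicle (-0.22). Fcer2a, Pigr, Fcamr and Fcrls lay between -0.03 and 0.09. Of 18 detected genes that signal from Fc receptors 12 lay above the all-gene median, with a median of 0.12. Lat2, an adaptor, had the highest ratio among them (0.37), and the kinase Syk had 39.4 on hIgG and 40.9 on vehicle (-0.05).

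Macrophage markers were mostly higher on hIgG beside these genes, and synovial fibroblast markers were mostly lower. Of 30 macrophage markers, all detected, 24 lay above the all-gene median, with a median of 0.16, and their summed signal had a log2 ratio of 0.16. For these markers CTLA-4-Ig had a median log2 ratio of 0.11 over vehicle and -0.05 over hIgG. Over all probes that averaged 25 or more, its medians were 0.07 over vehicle and 0.062 over hIgG. Read against this offset, the medians of the macrophage markers lay nearer to vehicle. Over probes at 400 and over the offset was 0.042 over vehicle and 0.024 over hIgG, which put them about midway. The summed marker signal of CTLA-4-Ig was 64941.5, close to 64796.2 for hIgG and above 58038.8 for vehicle. Where the macrophage markers placed CTLA-4-Ig thus depended on the measure. For the antiviral genes CTLA-4-Ig lay with vehicle, with medians of -0.07 over vehicle and -0.45 over hIgG. The complement gene C1qa had a signal of 3136 on hIgG and 2386 on vehicle (0.39), Tyrobp, an adaptor of activating receptors, had 3129 on hIgG and 2463 on vehicle (0.34) and Adgre1 (F4/80) had 554 on hIgG and 463 on vehicle (0.26). Others, among them Csf1r (0.09), Itgam (0.07), Lyz2 (0.08) and Mertk (-0.07), lay close to 0. Of 24 detected synovial fibroblast markers 6 lay above the all-gene median and 18 below it, with a median of -0.11 and between -0.28 and 0.27. Over the 19 of them that averaged 25 or more the median was -0.065. In a bulk culture fewer cells of a type and less RNA per cell cannot be told apart, and the part of cell composition in the higher and lower groups was not tested. Fcgr1 is itself on the macrophage list and had its highest ratio, and Cx3cr1 came next with 0.62. The other 28 markers lay between -0.13 and 0.39, and the quartiles of all 30 were 0.08 and 0.26.

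**Figure D5:**
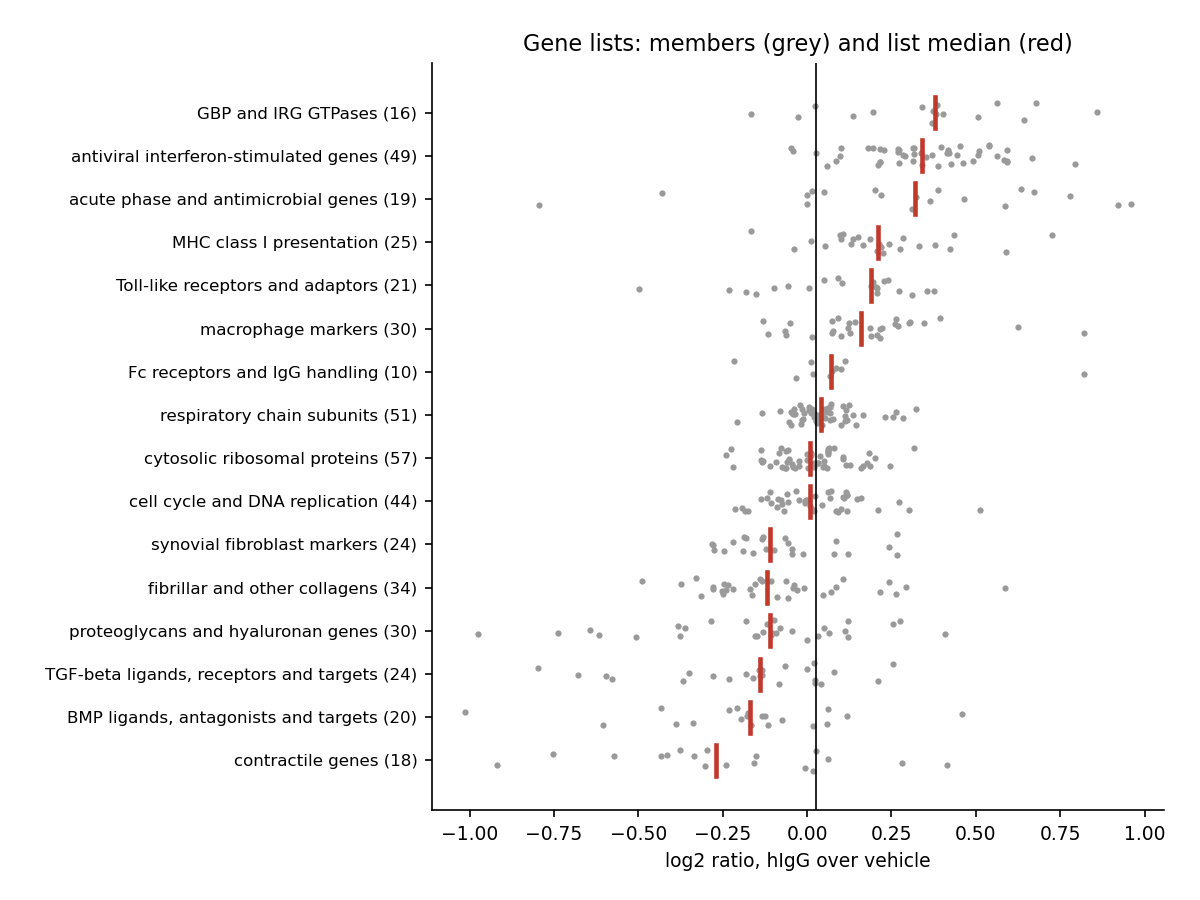
Log2 ratio of hIgG over vehicle (horizontal axis) for the detected members of 16 gene lists (number in brackets), each a grey point, with the list median as a red bar. The black line is the all-gene median, 0.026. The medians run between 0.38 for the GBP and IRG GTPases and -0.27 for contractile genes, and housekeeping lists lie at the black line.

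Contractile genes had the lowest list median on hIgG. Of 18 detected members 3 lay above the all-gene median and 15 below it, 2 were 1.5-fold lower and the median was -0.27. Over the 11 members that averaged 25 or more it was -0.33. Tagln (transgelin), an early marker of smooth muscle and myofibroblasts, had a signal of 302 on hIgG, 473 on CTLA-4-Ig and 508 on vehicle, a log2 ratio of -0.75. Acta2 (smooth muscle actin) had 1804 on hIgG, 2884 on CTLA-4-Ig and 2681 on vehicle (-0.57). Cnn1 (calponin) was dim, with 12.8 on hIgG and 24.2 on vehicle (-0.92). The tropomyosin genes Tpm2 and Tpm1 had ratios of -0.43 and -0.33. Outside the list, Vcl had 412 on hIgG and 621 on vehicle (-0.59). Actg2, a smooth muscle actin of the gut, went the other way with 131 on hIgG and 108 on vehicle (0.28). Pericyte and smooth muscle markers were lower on hIgG beside these genes and share Tagln, Acta2 and Cnn1 with them. Of 13 detected on both arrays 9 lay below the all-gene median, 2 were 1.5-fold lower and 1 was 1.5-fold higher, with a median of -0.24. Their summed signal had a log2 ratio of -0.55, but most of it was the shared gene Acta2. Acta2 alone held 1804 of 2345 on hIgG and 2681 of 3439 on vehicle. Among the others, the pericyte gene Ndufa4l2 had 147 on hIgG and 148 on vehicle (-0.01), Mcam had 36.6 on hIgG and 29.0 on vehicle (0.34) and Cspg4 had 26.6 on hIgG and 32.2 on vehicle (-0.28). Myh11 and Des, of mature smooth muscle, had signals under 5 on both arrays. The part of such cells in the contractile result was not tested.

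Targets and ligands of the TGF-beta family were lower on hIgG beside the contractile genes. Of 24 detected TGF-beta genes 20 lay below the all-gene median, 3 were 1.5-fold lower and the median was -0.14. Ccn2 (connective tissue growth factor) had a signal of 423 on hIgG, 728 on CTLA-4-Ig and 735 on vehicle, a log2 ratio of -0.80. Its relatives Ccn1 and Ccn3 had 269 and 265 on hIgG against 431 and 416 on vehicle (-0.68 and -0.65). The latent ligand gene Tgfb3 had 51.9 on hIgG and 78.5 on vehicle (-0.60), and Ltbp1, which holds the ligand in the matrix, had 70.9 on hIgG and 106 on vehicle (-0.58). Tgfb1 was near equal, with 45.4 on hIgG and 44.7 on vehicle (0.02), and Tgfbi, a classical target, was higher on hIgG (0.21). The inhibitor Smad7 had 26.9 on hIgG and 34.7 on vehicle (-0.37). Thbs1, which can activate latent TGF-beta, had 212 on hIgG, 381 on CTLA-4-Ig and 360 on vehicle (-0.77). Its relative Thbs2 had 787 on hIgG and 1135 on vehicle (-0.53).

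Of 20 detected BMP ligands, antagonists and targets 16 lay below the all-gene median, 2 were 1.5-fold lower and the median was -0.17. Bmp4 had signals of 11.2 on hIgG, 23.6 on CTLA-4-Ig and 22.6 on vehicle (-1.01), which is below the limit of 25. The BMP target Id4 had 30.1 on hIgG and 45.8 on vehicle (-0.61), and Id1, Id2 and Id3, which were bright, had ratios between -0.21 and -0.18. Bmp2 was higher on hIgG but dim, with 4.40 against 3.20 on vehicle. Of 36 detected Wnt genes 18 lay on each side of the all-gene median, and the median was 0.03, but it was -0.13 over the 10 members that averaged 25 or more. The secreted inhibitors Sfrp1 and Sfrp2 had 325 and 252 on hIgG against 462 and 344 on vehicle (-0.51 and -0.45), whereas Sfrp4 had 56.8 on hIgG and 37.3 on vehicle (0.61).

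Genes of the matrix and its turnover were lower on hIgG in part. Prelp, a leucine-rich proteoglycan of cartilage, had a signal of 79.0 on hIgG, 121 on CTLA-4-Ig and 155 on vehicle, a log2 ratio of -0.98. Tnfrsf11b (osteoprotegerin), the decoy receptor that blocks osteoclast formation, had a ratio of -1.02. Timp3, an inhibitor of metalloproteases held in the matrix, had 179 on hIgG, 273 on CTLA-4-Ig and 290 on vehicle (-0.70). The metalloproteases Mmp3 and Mmp13 went the other way, with ratios of 0.68 and 0.62, while Mmp11 and Mmp12 had -0.31 and -0.12. Of 20 detected metalloproteases and TIMPs 8 lay above the all-gene median and 12 below it. In this list 3 were 1.5-fold higher, 2 were 1.5-fold lower and the median was -0.09. Fat1, an atypical cadherin, had 161 on hIgG, 197 on CTLA-4-Ig and 282 on vehicle (-0.81). Of 30 detected proteoglycan and hyaluronan genes 21 lay below the all-gene median, 4 were 1.5-fold lower, none was 1.5-fold higher and the median was -0.11. Of 34 collagens 25 lay below it, with a median of -0.12. Col1a2 had 5291 on hIgG and 6273 on vehicle (-0.25), while Col3a1, which fibroblasts make alongside it, was higher on hIgG with 2094 against 1768 on vehicle (0.24). The brighter probe of Col3a1 had a log2 ratio of 0.10 and the dimmer 0.38. The aggrecanase gene Adamts5 had 275 on hIgG and 390 on vehicle (-0.50).

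Lists of genes that every cell uses lay at the all-gene median. Cytosolic ribosomal protein genes had a median of 0.01 (57 detected), respiratory chain subunits 0.04 (51), cell cycle and replication genes 0.01 (44) and lysosomal genes 0.01 (39), and no member of these 4 lists was 1.5-fold apart. Hprt, a reference gene, had a signal of 1640 on hIgG and 1595 on vehicle (0.04). Genes of glycolysis and the response to hypoxia had a median of 0.12. Ddit4, an inhibitor of mTORC1, had 470 on hIgG, 445 on CTLA-4-Ig and 306 on vehicle (0.62). Il6, a cytokine of the inflamed synovium, had 40.6 on hIgG and 42.7 on vehicle (-0.07), and Cd274 (PD-L1) had 25.7 on hIgG and 28.1 on vehicle (-0.13). Cd86 had 14.3 on hIgG and 11.1 on vehicle (0.36).

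Probes detected on 1 of both arrays were nearly all at the detection limit. On hIgG only, 454 probes were detected, and on vehicle only 377. Of these, 1 had a signal of 10 or more. This was Zfp330, at 277 on hIgG and 309 on CTLA-4-Ig, whose spot on the vehicle array carried a bad flag. The highest on vehicle only had 6.80.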

How the data were processed

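The authors hybridized Cy5-labelled RNA of each culture to 1 mouse oligo array. They deposited the scanned intensity of each spot with a background column, and a table of normalized intensity values with the blank spots subtracted, undetected probes left empty and a median of 25. The hIgG and vehicle columns were rounded to 1 decimal, which makes ratios of dim probes coarse. Log2 ratios of this table were computed with Python 3.11.15 and pandas 2.3.3, and alternatives with limma 3.58.1 in R 4.3.3. A gene is the mean of the log2 signals of its detected probes. Probes were named through the platform annotation and RefSeq genes (20690 named, 2783 not named here). Of 23473 probes, 19179 were detected on hIgG, 19710 on CTLA-4-Ig and 19102 on vehicle. Positive control spots had a coefficient of variation of 6.30% to 13.5% within an array. With 1 array per condition, the spread between 2 probes of a gene is a further measure of precision, which leaves out differences between cultures. The 3 samples were grouped by the treatment in the labels. The counting was tested on simulated data. No test was run.

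The members and the 55 lists were chosen with earlier results of these data known. Named were genes 2-fold apart or among the 20 highest and 20 lowest with a mean signal of at least 25, the 3 highest and 3 lowest of each list with a mean signal of at least 10, all Fc receptor genes and those the study names. The text prints the main ones and some others, chosen after their values were seen (Adgre1, Bmp2, Ccdc80, Cd3d, Cd3e, Cd3g, Cemip, Cxcl1, Des, Id1, Id2, Id3, Ifih1, Ifnb1, Isg15, Ltbp1, Ltn1, Lyz2, Myh11, Oas1a, Prss23, Psmb10, Smad7, Stat2, Tesk1, Tgfb1, Tpm1, Tpm2, Tulp4, Usp18 and Vcl). Alternatives were quantile and cyclic loess normalization, other scalings, normexp, rebuilding from the scanned intensities, other signal limits and folds, a floor of 1 and the brightest probe.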

Additional observations from a re-analysis of the deposited data

How the results depend on the processing

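No paired analysis was possible because a single array stands for each treatment, and leaving out a replicate was not possible for the same reason. Depth is not a measure of arrays. Their number and the signal over background limit the precision, as do differences between cultures, which cannot be told apart here. Other settings were quantile normalization, cyclic loess, rebuilding from the scanned intensities, and scaling to the 75th percentile or the median of probes both arrays detected. They moved the median of all genes by no more than 0.023. They turned no sign of a named gene whose ratio exceeded 2 robust standard deviations of its signal range. Nor did they turn a list median that lay more than 2 times its spread from that of all genes. Signs of genes and lists nearer to 0 were not counted. The 3 probes 2-fold higher and 1 probe 2-fold lower on hIgG were 1 and 1 at a mean signal of at least 50. They were 1 and 0 at 100, 4 and 4 at 10, and 1 higher with a signal of at least 25 on both arrays. They were 45 and 57 with no limit on signal, 35 and 33 at 1.5-fold, and 0 and 0 at 3-fold. With 4 robust standard deviations of the signal range as the limit, chosen after seeing the data, they were 32 and 44. With the brightest probe of each gene, 4 of 116 named genes and 1 of 55 lists moved by at least their spread, a gene by 0.325 at most. Cyclic loess moved 1 list as far. Over members with a mean signal of at least 25, 11 of 54 lists moved by at least their spread. There the median of acute phase genes was 0.049 and that of synovial fibroblast markers -0.065.

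With normexp (offset 50, then quantile normalization) 256 probes were 2-fold higher and 220 lower, and the robust standard deviation of all genes was 0.029. Its background column rises with the spot signal (correlation 0.99 on hIgG and 1.0 on vehicle, log2 scale). List medians were 0.0048 for antiviral genes, 0.0044 for GBP and IRG GTPases, 0.0041 for acute phase genes, -0.0039 for BMP genes and -0.0039 for synovial fibroblast markers. Relative to all genes (median -0.0017) the sign turned for PYHIN genes (-0.0068), Toll-like receptors (-0.0026), MHC class I (-0.0040), co-stimulatory ligands (-0.0018), proteoglycans (0.0079), contractile genes (0.0002), TGF-beta genes (-0.0016) and macrophage markers (-0.0035). Genes higher on hIgG in the deposited table had normexp log2 ratios of -0.0563 for Acod1, -0.0070 for C1qa, -0.7311 for Ccl12, -0.0018 for Cd86, -0.0412 for Clec4e, -0.1119 for Clec5a, -1.4855 for Ctsc, -0.1153 for Cxcl10, -0.0131 for Cxcl11, -0.0079 for Cxcl9, -0.0253 for Gbp10, -0.0161 for Gpr84, -0.0330 for H2-T24, -0.1361 for Hp, -0.0576 for Ifi44l, -0.0402 for Ifih1, -0.0381 for Igtp, -0.0389 for Irf7, -0.0077 for Mcam, -0.2292 for Mmp13, -1.0284 for Mmp3, -0.0613 for P2ry12, -0.5233 for Psmb10, -0.1121 for Sfrp4 and -0.0159 for Tesk1. Genes lower on hIgG in it had 0.0657 for Ccdc80, 0.2306 for Ccn1, 0.0642 for Cd28, 0.0039 for Fat1, 0.3514 for Prelp, 0.0574 for Ptx3, 0.2103 for Sfrp1, 0.0862 for Sfrp2, 0.0007 for Smad7, 0.0253 for Tgfb3, 0.1083 for Thbs1, 0.0630 for Tpm1 and 0.1385 for Tpm2. Apart from the background column, the cause was not tested.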

Other observations

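Replication-dependent histone genes stood apart by class. They were looked at after their values were seen, and the gene copies are near-identical, so that their probes may measure the same transcripts. Of 10 detected H2A genes, the 7 with a mean signal of at least 25 all lay above the median of all genes, with log2 ratios between 0.12 and 0.54 and a median of 0.42. H2ac11 had a signal of 4666 on hIgG, 4953 on CTLA-4-Ig and 3206 on vehicle. Of 12 detected H2B genes, the 8 with a mean signal of at least 25 all lay below it, between -0.73 and -0.34, with a median of -0.46. H2bc9 had 524 on hIgG, 776 on CTLA-4-Ig and 869 on vehicle. The CTLA-4-Ig array thus lay with hIgG for H2A and with vehicle for H2B. The 6 H3 genes at this signal had a median of 0.04, and the 6 H4 genes a median of -0.16. Cell cycle and replication genes had a median of 0.01.

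Targets of the Hippo pathway, which include Ccn1 and Ccn2, and genes of focal adhesions and actin were also put together after values were seen. Of 22 Hippo target genes 19 lay below the all-gene median and 3 were 1.5-fold lower, with a median of -0.17. Amotl2, which binds and holds back the co-activator YAP, had a signal of 128 on hIgG, 196 on CTLA-4-Ig and 205 on vehicle (-0.67). Of 27 focal adhesion and actin genes 19 lay below it and 1 was 1.5-fold lower, with a median of -0.19.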
